A study of Arabidopsis thaliana with 15 samples.

Results

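The genes described here are AT5G62280, AT3G21352, AT5G12050, AT5G02760 and AT5G53980 (HB52), 5 of the 32678 named genes of an RNA sequencing data set of Arabidopsis thaliana seedlings. They were picked by gene identifier because their RNA was lower in seedlings given GR244DO than in seedlings given solvent, so those contrasts at 2 h and 4 h chose the genes and are described here without a test. All plants were wild type of the Col ecotype, were 10 days old, were grown on plates and kept in liquid medium for 2 h before treatment, and were taken as whole seedlings. The groups were 5 µM GR244DO for 2 h, 5 µM GR244DO for 4 h, and solvent at 0 h, 2 h and 4 h, with 3 libraries in each of the 5 groups. The labels do not say whether replicates were separate cultures or plant pools, so the spread behind each p-value is that between libraries and may be technical.

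GR244DO is a synthetic strigolactone, GR24 with the stereochemistry of the natural hormone 4-deoxyorobanchol. Strigolactones limit shoot branching and shape root growth. The receptor D14 binds the hormone and, with the F-box protein MAX2, marks SMXL repressor proteins for breakdown, which frees the genes that the repressors hold down. AT5G02760 encodes a clade D protein phosphatase of the PP2C family. Enzymes of that clade remove an activating phosphate from plasma membrane proton pumps and limit cell expansion, and this member is also known for restraining leaf senescence. HB52 is a homeodomain leucine zipper (HD-Zip) class I transcription factor that ethylene signalling, through EIN3, switches on in roots, where it binds the genes of the auxin transporter PIN2 and of the kinases WAG1 and WAG2. AT5G62280 belongs to a plant protein family with a domain of unknown function. AT5G12050 is annotated in RefSeq as a rho GTPase-activating protein, and AT3G21352 encodes a short uncharacterized protein.

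In the reference annotation (RefSeq, TAIR10.1) all 5 genes lie on the + strand. AT5G62280 spans chr5:25016860-25018265 and encodes 236 residues. AT5G12050 is a single-exon gene at chr5:3889906-3891514 that encodes 362 residues. AT5G02760 spans chr5:625254-627124 with 4 exons and encodes 370 residues. HB52 is a single-exon gene at chr5:21913883-21914866 that encodes 156 residues. AT3G21352 spans chr3:7519865-7520549 and encodes 74 residues.

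The promoter windows of AT5G62280, AT5G12050 and AT3G21352 are shown because they hold the only matches of the 5 genes to hormone-related motifs searched. Each runs from 250 bases before to 50 bases after the annotated gene start, on the + strand of TAIR10.1, at chr5:25016610-25016909, chr5:3889656-3889955 and chr3:7519615-7519914 in the order printed. Capitals mark GAGACA, which is TGTCTC read on the other strand, in AT5G62280 and AT5G12050, and CGTGTG in AT3G21352.
AT5G62280: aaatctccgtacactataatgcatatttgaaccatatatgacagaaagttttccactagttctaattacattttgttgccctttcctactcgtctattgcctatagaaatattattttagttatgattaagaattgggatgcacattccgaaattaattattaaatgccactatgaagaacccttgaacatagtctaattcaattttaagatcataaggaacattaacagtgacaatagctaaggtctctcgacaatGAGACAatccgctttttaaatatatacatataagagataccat
AT5G12050: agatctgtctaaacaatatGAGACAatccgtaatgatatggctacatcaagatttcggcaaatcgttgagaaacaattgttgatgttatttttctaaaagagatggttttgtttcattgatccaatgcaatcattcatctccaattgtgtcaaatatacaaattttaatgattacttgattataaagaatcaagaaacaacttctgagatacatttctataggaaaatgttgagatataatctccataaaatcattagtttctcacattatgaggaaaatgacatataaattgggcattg
AT3G21352: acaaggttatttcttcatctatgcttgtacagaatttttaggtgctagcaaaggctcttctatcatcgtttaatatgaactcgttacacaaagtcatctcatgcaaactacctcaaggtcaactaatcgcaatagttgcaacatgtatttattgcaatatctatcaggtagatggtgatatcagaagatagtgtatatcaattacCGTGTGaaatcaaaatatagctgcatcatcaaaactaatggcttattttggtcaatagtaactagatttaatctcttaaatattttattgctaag

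Both strands of the windows were searched for TGTCTC (auxin response element), TGTCGG (bound by auxin response factors), CGTGTG (brassinosteroid response element), CACGTG (G-box), CACATG (an E-box bound by PIF factors), CAATNATTG (bound by HD-Zip I factors) and ATAACAA (letters bound by SMXL6). TGTCTC lay in 2 of the 5 windows, those of AT5G62280 and AT5G12050, and in 14.2% of the 27443 nuclear protein-coding windows of the same length. CGTGTG lay in the AT3G21352 window and in 6.52% of all windows. The other motifs, found in 5.12% (TGTCGG), 7.68% (CACGTG), 12.9% (CACATG), 1.07% (CAATNATTG) and 13.5% (ATAACAA) of all windows, had no match in any of the 5. In AT5G62280 the match begins at base 8 of the annotated transcript, and in AT5G12050 it begins at -231 from the gene start. A search for the longest run of letters shared by each pair of the 5 windows, on either strand, gave ATGAGACAATCCG for AT5G62280 and AT5G12050. This run of 13 letters includes the printed capitals, has the same orientation in both, and was found in 2 of the 27443 windows, these same 2. The longest runs of the other 9 pairs had 8 to 10 letters and were each found in at least 20 windows. These matches are descriptions of sequence and no binding was measured.

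Sequencing depth was 24.4 to 37.4 M reads (1 M is 1e6) assigned to genes, and levels are in RPKM, the reads of a gene divided by its length in kilobases and by the library's assigned reads in units of 1e6. AT3G24420 (DLK2), which strigolactones are known to induce, rose with GR244DO, at 45.7 ± 1.98 RPKM against 24.8 ± 1.75 RPKM in solvent at 2 h and 50.6 ± 2.97 RPKM against 14.4 ± 0.360 RPKM at 4 h (SD, n = 3 each). It also moved in solvent alone. There it rose from 9.85 ± 0.399 RPKM at 0 h to its level at 2 h (log2 difference 1.25, limma adjusted p = 9.04e-10). It then fell by 4 h (-0.74 against 2 h, limma adjusted p = 7.1e-07). The log2 difference between GR244DO and solvent was 0.86 at 2 h and 1.74 at 4 h. In 3 of 15 pairs of replicates (GR244DO 4 h replicates 1 and 2, solvent 2 h replicates 2 and 3, solvent 4 h replicates 1 and 3) the counts differed by little more than sampling noise, with a chi-square per degree of freedom of 1.13 to 1.87 against 3.82 to 19.2 in the other 12. They were kept as separate samples. The 6 leaf photosynthesis markers summed to 17986 to 18853 RPKM (GR244DO 2 h), 15982 to 18146 RPKM (GR244DO 4 h), 29584 to 35877 RPKM (solvent 0 h), 19747 to 20469 RPKM (solvent 2 h) and 14065 to 16133 RPKM (solvent 4 h). The 7 root markers summed to 1361 to 1372, 1391 to 1516, 1171 to 1329, 1206 to 1265 and 1374 to 1457 RPKM in the same 5 groups, and no marker of either list was at 0 in any library. Most of each root sum was PYK10, with means of 1228, 1326, 1097, 1105 and 1275 RPKM. The leaf sums were led by RBCS1A (group means of 9805 to 15080 RPKM) and RBCS3B (4179 to 8744 RPKM). The single leaf markers differed widely in solvent. Their means at 4 h were 65.0% (RBCS1A), 47.8% (RBCS3B), 28.8% (CA1), 22.9% (RCA), 3.84% (CAB2) and 3.45% (LHCB2.1) of those at 0 h. In these bulk samples the sums cannot tell fewer cells of a type from less RNA per cell, and the cause of the shifts was not tested.

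The RNA of AT5G62280, AT5G12050 and AT5G02760 was highest before treatment, was lower at each later time in solvent, and was lower again with GR244DO. With GR244DO, 4 of the 5 genes at 2 h and all 5 at 4 h had libraries wholly below those in solvent, where 6.89% and 16.0% of all 19155 genes tested did, counts that the choice of the genes fixes. AT3G21352 and HB52 differed from the other 3 genes in solvent. AT3G21352 stayed near its starting level there, and HB52 had its lowest solvent level at 2 h. AT5G62280 had the widest span, with a mean in GR244DO at 4 h that was 10.6% of the mean before treatment.

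**Figure D1:**
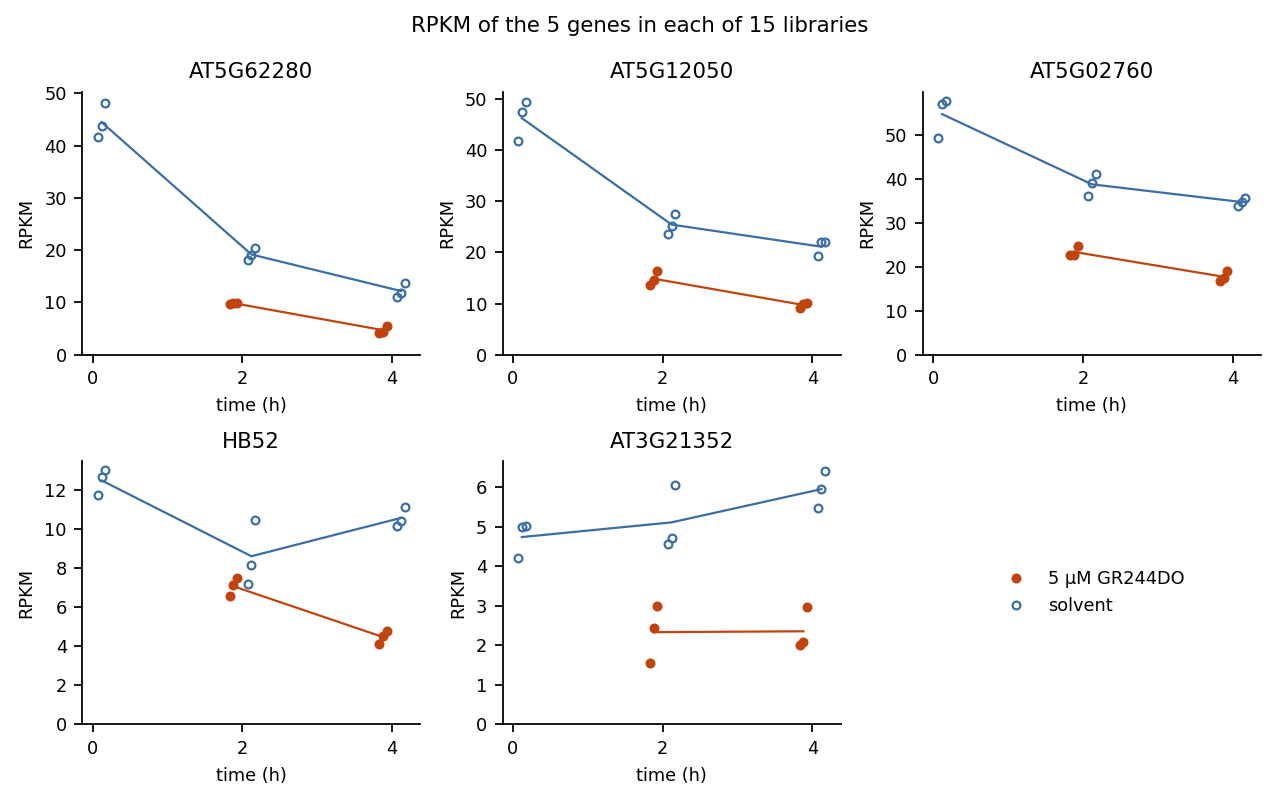
Each panel plots the RPKM of 1 gene (vertical axis, from 0) against time in h, with filled points for the 3 libraries per time in 5 µM GR244DO, open points for the 3 in solvent, and lines through the means. At 4 h all GR244DO points lie below all solvent points in every panel, and at 2 h this holds in every panel but that of HB52, where 7.51 RPKM in GR244DO lies above 7.19 RPKM in solvent.

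AT5G62280 had 9.92, 9.74 and 9.99 RPKM in GR244DO libraries at 2 h, against 20.5, 19.0 and 18.0 RPKM in solvent libraries at 2 h. At 4 h it had 4.21, 4.38 and 5.52 RPKM in GR244DO libraries, against 11.7, 13.7 and 11.1 RPKM in solvent libraries. Before treatment it had 48.1, 43.8 and 41.6 RPKM. The groups did not overlap at any step of the order solvent 0 h, solvent 2 h, solvent 4 h, GR244DO 2 h, GR244DO 4 h. The GR244DO level was thus lower at 2 h than the solvent level at 4 h. The difference between GR244DO and solvent, on the scale of log2(RPKM + 1), was -0.89 at 2 h (SE 0.09) and -1.21 at 4 h (SE 0.09). It was the 4th and the 3rd lowest of 19155 genes tested, which is the choice itself and no finding. The GR244DO mean was 51.5% of the solvent mean at 2 h and 38.6% at 4 h. The 118 to 1479 reads behind each value make counting error small for this gene.

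AT5G12050 followed the same order of groups with no overlap between neighbours. It had 14.6, 13.7 and 16.3 RPKM in GR244DO libraries at 2 h, against 27.5, 23.6 and 25.1 RPKM in solvent libraries at 2 h. At 4 h it had 10.1, 9.19 and 9.84 RPKM in GR244DO libraries, against 22.1, 19.2 and 22.0 RPKM in solvent libraries. Every GR244DO library was lower than every solvent library. Before treatment the libraries had 49.3, 41.8 and 47.5 RPKM. The log2 difference was -0.74 at 2 h (SE 0.08) and -1.04 at 4 h (SE 0.08), and the GR244DO means were 58.5% and 46.1% of the solvent means. From its protein, the nearest relatives by BLASTP were AT3G13980 with 42.0% identity over 219 residues and AT1G54200 with 40.4% over 223 residues. Neither relative passed the test at either time, with log2 differences of 0.14 and -0.09 for AT3G13980 and -0.11 and -0.30 for AT1G54200 at 2 h and 4 h (limma, adjusted p of 0.190 to 0.704).

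AT5G02760, the PP2C phosphatase, had the highest levels of the 5 genes on the RPKM scale. It had 22.7, 24.9 and 22.8 RPKM in GR244DO libraries at 2 h, against 36.3, 39.1 and 41.2 RPKM in solvent libraries at 2 h. At 4 h it had 17.5, 19.0 and 16.9 RPKM in GR244DO libraries, against 34.9, 35.7 and 33.9 RPKM in solvent libraries. The treated and solvent libraries were apart at both times. Before treatment the libraries had 49.5, 57.9 and 57.2 RPKM, above every later library, and no neighbours in the order of the groups overlapped. The log2 difference was -0.70 at 2 h (SE 0.07) and -0.93 at 4 h (SE 0.07), and the GR244DO means were 60.4% and 51.1% of the solvent means. On the opposite strand the annotation places MOS11 (AT5G02770), which shares 91 exon bases with AT5G02760, and AT5G00875, which shares 24 and was not analysed here. The strand setting of the counting is not given in the sources used here, so reads from these overlaps cannot be told apart. MOS11 itself differed by -0.05 at 2 h and -0.07 at 4 h on the log2 scale.

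HB52 was the only gene of the 5 whose GR244DO and solvent libraries overlapped at 2 h. It had 7.14, 6.59 and 7.51 RPKM in GR244DO libraries, against 7.19, 8.18 and 10.5 RPKM in solvent libraries at 2 h. At 4 h it had 4.14, 4.51 and 4.76 RPKM in GR244DO libraries, against 10.4, 10.2 and 11.1 RPKM in solvent libraries, and the groups were apart. Before treatment it had 12.7, 11.8 and 13.0 RPKM. The log2 difference was -0.24 at 2 h (SE 0.10) and -1.08 at 4 h (SE 0.10), which placed HB52 at 528 and at 5 in the order from the lowest of 19155 genes. At 2 h it ran from -0.35 to -0.10 leaving out 1 library, and the value nearest 0 was the one without solvent 2 h replicate 3. The difference between these responses, 4 h minus 2 h, was -0.84. The same quantity was -0.32 for AT5G62280, -0.17 for AT3G21352, -0.31 for AT5G12050 and -0.23 for AT5G02760. In the order of its group means (solvent 0 h, 4 h, 2 h, then GR244DO 2 h and 4 h), solvent 4 h and 2 h overlapped, as did solvent 2 h and GR244DO 2 h. Values of HB52 rest on 77 to 307 reads each.

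AT3G21352 had the lowest levels, and each value rests on 11 to 64 reads. It had 3.00, 2.45 and 1.55 RPKM in GR244DO libraries at 2 h, against 4.71, 6.06 and 4.57 RPKM in solvent libraries at 2 h. At 4 h it had 2.96, 2.09 and 2.02 RPKM in GR244DO libraries, against 5.96, 6.42 and 5.49 RPKM in solvent libraries. Treated and solvent libraries did not overlap at either time. Before treatment it had 5.03, 4.21 and 4.99 RPKM, and in the order of group means (solvent 4 h, 2 h, 0 h, then GR244DO 4 h and 2 h) the gap between solvent 0 h and GR244DO 4 h was the only one without overlap. The log2 difference was -0.89 at 2 h (SE 0.15) and -1.06 at 4 h (SE 0.15), with the largest SE of the 5 genes. The GR244DO means were 45.6% and 39.6% of the solvent means. The gene length behind the deposited values came out as 282 bp, against 582 bp of exons in TAIR10.1, so its RPKM is less safely set against the other genes than its ratios between groups. Lengths also differed for AT5G62280 (1064 against 1296 bp), AT5G12050 (1410 against 1609 bp) and HB52 (705 against 984 bp). Over all genes with both lengths, 7.15% were equal.

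AT3G21352 has a tandem copy, AT3G21351, which ends 387 bp before it on the same strand (chr3:7518784-7519477, TAIR10.1) and whose protein is 75.3% identical over 73 residues. How the authors treated reads that map to several places is not given in the sources used here, so the copies may share or lose reads. AT3G21351 averaged 37.8 ± 2.03 RPKM in GR244DO and 43.5 ± 4.39 RPKM in solvent at 2 h, and 36.1 ± 1.49 RPKM in GR244DO and 50.3 ± 2.27 RPKM in solvent at 4 h (SD, n = 3 each). It passed the test at 4 h (log2 difference -0.47, SE 0.10, limma adjusted p = 0.005) and not at 2 h (-0.19, adjusted p = 0.288). In solvent it rose by 4 h, to 50.3 RPKM against 38.8 ± 6.22 RPKM at 0 h (log2 difference 0.38, adjusted p = 0.00433), as did 28.7% of all genes tested. The other relative, AT1G51915, was at 0.0613 to 0.206 RPKM in group means and was not tested.

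Tests were possible for the 5 genes in solvent over time, a comparison that did not choose them, although its libraries at 2 h and 4 h also served in the choice. At 2 h against 0 h, 4 of the 5 genes fell and none rose, where 9.66% of the 19155 genes tested fell. AT5G62280 changed most, by -1.17 on the log2 scale (SE 0.09, 95% interval -1.37 to -0.98, limma adjusted p = 1.07e-07), and was lower in 3 of 3 libraries. AT5G12050 changed by -0.84 (adjusted p = 1.62e-06), HB52 by -0.50 (adjusted p = 0.00137) and AT5G02760 by -0.49 (adjusted p = 8.91e-05). In all 4 genes the libraries at 2 h lay below those at 0 h, as in 12.4% of all genes. AT3G21352 changed by 0.09 (95% interval -0.23 to 0.40, adjusted p = 0.706), with overlapping libraries.

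At 4 h against 0 h in solvent, 3 of the 5 genes fell, where 15.4% of all genes tested fell. AT5G62280 changed by -1.79 (adjusted p = 2.5e-10) and averaged 12.2 ± 1.35 RPKM at 4 h and 44.5 ± 3.31 RPKM at 0 h (SD, n = 3 each). AT5G12050 averaged 21.1 ± 1.64 RPKM at 4 h and 46.2 ± 3.95 RPKM at 0 h (adjusted p = 2.96e-08). AT5G02760 changed by -0.64 (adjusted p = 2.21e-06). These 3 genes and HB52 had libraries at 4 h that all lay below those at 0 h, as in 17.6% of all genes. HB52 did not pass the test, at 10.6 ± 0.506 RPKM at 4 h and 12.5 ± 0.652 RPKM at 0 h (log2 difference -0.22, 95% interval -0.43 to -0.01, adjusted p = 0.0867), and passed it without solvent 2 h replicate 1 (0.0463) or 3 (0.0314) and with median-of-ratios scaling (0.0346). AT3G21352 did not pass it either (0.28, 95% interval -0.04 to 0.59, adjusted p = 0.142), and its 3 libraries at 4 h were all above those at 0 h, as in 32.4% of all genes.

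Between 2 h and 4 h in solvent, AT5G62280 fell further (log2 difference -0.62, adjusted p = 0.000193), and AT5G12050 passed the test narrowly (-0.26, adjusted p = 0.0379), where 9.50% of all genes tested fell. The call of AT5G12050 was lost without solvent 2 h replicate 1 (adjusted p = 0.129) or 3 (0.0734) and without solvent 4 h replicate 1 (0.0576), 2 (0.134) or 3 (0.0591). AT5G02760 (-0.15, adjusted p = 0.142) and AT3G21352 (0.19, adjusted p = 0.382) did not pass. Libraries at 4 h lay below those at 2 h in AT5G62280, AT5G12050 and AT5G02760, as in 19.2% of all genes. HB52 had the opposite sign, 0.28 higher at 4 h than at 2 h, and missed the threshold (adjusted p = 0.057). It passed without solvent 2 h replicate 3, the highest library of that group (0.42, adjusted p = 0.0041).

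**Figure D2:**
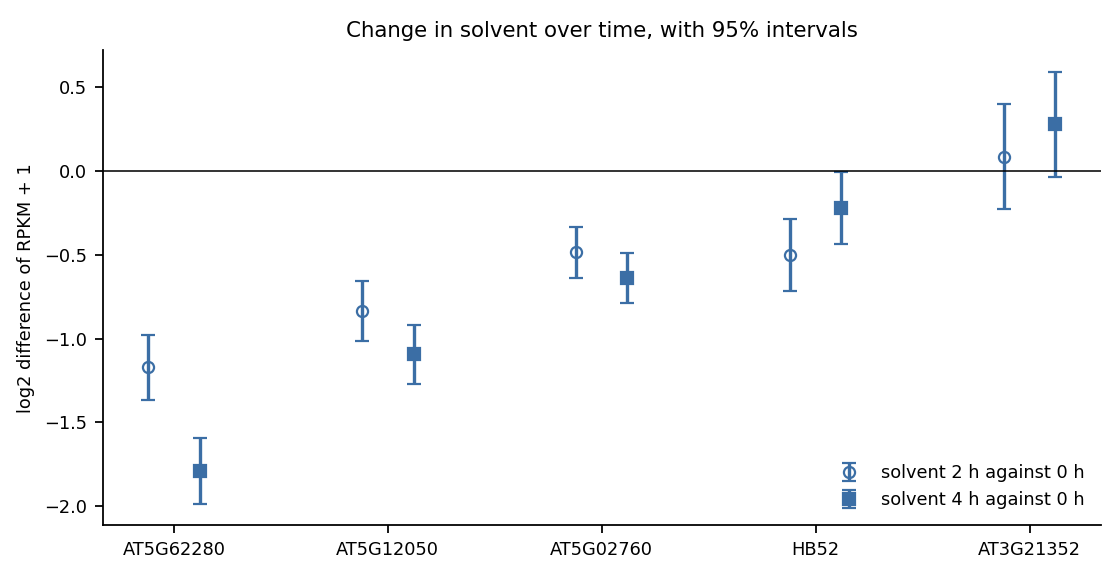
The vertical axis gives the log2 difference of RPKM + 1 in solvent against 0 h for each of the 5 genes, with open circles for 2 h, filled squares for 4 h, and bars for 95% intervals from the fit. AT5G62280 lies lowest at -1.17 and -1.79, and AT3G21352 is the only gene above 0, at 0.09 and 0.28 with both intervals across 0.

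Over the same solvent series the 6 leaf photosynthesis markers all fell, with a median log2 difference of -1.18 at 2 h and -1.96 at 4 h against 0 h. Of the 6 root markers that were tested, 1 fell at 2 h, and at 4 h 2 rose and 1 fell. Among all genes tested 9.66% fell at 2 h, and 28.7% rose and 15.4% fell at 4 h. Between GR244DO and solvent, no leaf or root marker passed the test at 2 h, with 2 of 6 and 4 of 6 at an unadjusted p under 0.05 in limma and 0 called in each list by limma-voom. Among all 19155 genes tested, 3510 had an unadjusted p under 0.05 in limma at 2 h. With the replicate number as a block, RCA was called lower (-0.20, adjusted p = 0.0408) and PIN2 higher (0.26, adjusted p = 0.028) at 2 h. At 4 h the leaf markers CA1 (0.33, adjusted p = 0.0205) and RCA (0.31, adjusted p = 0.00425) and the root marker PIN2 rose, and the call of CA1 was lost without GR244DO 4 h replicate 1 (0.0652) or 3 (0.0643) or solvent 4 h replicate 2 (0.073) or 3 (0.0529). It was also lost with median-of-ratios scaling (0.0818), and both leaf calls were lost with near-identical libraries averaged (0.121 for CA1 and 0.0881 for RCA). The part of these shifts in the values of the 5 genes was not tested.

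The pattern of each gene over the 15 libraries was set against all others by Pearson's r of log2(RPKM + 1), as a description, since the libraries share groups and depth. AT5G62280 and AT5G12050 had r = 0.98 with each other, and each stood 2nd among the 19154 other genes for the other. AT5G02760 had r = 0.95 with AT5G62280 and 0.96 with AT5G12050. HB52 had 0.85 to 0.91 with these 3 genes, and AT3G21352 was the least alike, at 0.59 with AT5G62280 to 0.75 with AT5G02760.

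**Figure D3:**
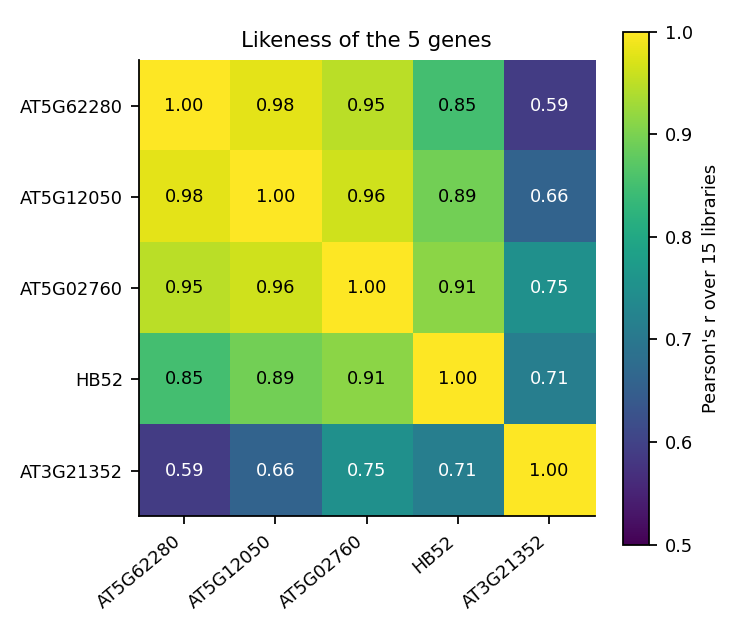
The matrix gives Pearson's r of log2(RPKM + 1) over 15 libraries for each pair of the 5 genes, coloured on a scale that starts at 0.5. AT5G62280, AT5G12050 and AT5G02760 form the block of values of 0.95 to 0.98, and the row of AT3G21352 holds the lowest values, 0.59 to 0.75. The genes were chosen on contrasts among these libraries, which favours high values.

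Beyond the set itself, the genes most like AT5G62280 were the auxin-signalling repressor IAA7 (r = 0.981) and the zinc finger gene AT5G44260 (0.977). Those most like AT5G12050 were EBP, an ethylene-responsive element binding protein gene (0.981), and the trypsin inhibitor gene KTI1 (0.978). AT5G02760 was most like AT3G12710, annotated as a DNA glycosylase family gene (0.965), and AT1G21050 (0.960). HB52 was most like the boric acid channel gene NIP5;1 (0.967), the ARGOS-like gene ARL (0.960) and the basic helix-loop-helix gene HEC1 (0.954). AT3G21352 was most like the cell wall enzyme gene XTH33 (0.891), the DELLA gibberellin-signalling gene GAI (0.879) and AT4G22310 (0.866).

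Of 8 other PP2C clade D genes tested, 0 were called at 2 h or 4 h in limma, with 2 and 0 at an unadjusted p under 0.05, and limma-voom called 0 as well. For comparison, 1.30% of all genes were called at 2 h and 8.93% at 4 h. An unadjusted p under 0.05 was found for 3510 of all 19155 genes at 2 h and 4608 at 4 h. Their log2 differences ran from -0.11 to 0.21 at 2 h (median 0.06, against 0.06 over all genes) and from -0.16 to 0.12 at 4 h (median 0.02, against 0.02). The best expressed were AT4G38520, at 57.4 ± 3.40 RPKM in GR244DO and 61.1 ± 0.955 RPKM in solvent at 2 h, and AT3G51370, at 45.0 ± 1.44 and 48.5 ± 0.257 RPKM. The closest by protein was AT3G12620, with 62.2% identity over 368 residues, at 14.0 ± 0.741 RPKM in GR244DO and 15.8 ± 1.71 RPKM in solvent at 4 h (log2 difference -0.16, adjusted p = 0.247). AT3G55050, with 59.1% identity, differed by 0.06 and 0.02.

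Clade D phosphatases act on plasma membrane proton pumps, and TMK receptor-like kinases phosphorylate those pumps in auxin signalling. Of 5 pump and TMK genes tested, none was called in limma at either time, with 0 at 2 h and 1 at 4 h at an unadjusted p under 0.05. That gene was the pump gene HA1, at 281 ± 4.21 RPKM in GR244DO and 238 ± 8.75 RPKM in solvent at 4 h (log2 difference 0.23, adjusted p = 0.0584), and limma-voom called 1 gene of the list at 4 h and 0 at 2 h. HA2, the other pump gene, differed by 0.03 at 2 h and 0.10 at 4 h. The list medians were 0.03 and 0.10. Of all 19155 genes tested, 3510 at 2 h and 4608 at 4 h had an unadjusted p under 0.05.

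Of 16 other HD-Zip I genes, 9 passed the filter and were tested, and none was called at 2 h or 4 h in limma. Another, HB-1, had 0 reads in all 15 libraries, and whether it was silent or not counted was not tested. At an unadjusted p under 0.05 there were 4 at 2 h and 2 at 4 h, and limma-voom called 0. Among all 19155 genes tested, 3510 at 2 h and 4608 at 4 h were under that unadjusted p. The list medians were 0.16 at 2 h and 0.04 at 4 h. The relatives of HB52 nearest by protein, HB-3 (40.8% identity over 125 residues) and HB20 (50.6% over 79), differed by 0.11 and 0.11 at 2 h and by 0.01 and 0.16 at 4 h. HB6 and HB5, which act in abscisic acid signalling and were the best expressed of the family, differed by 0.09 and 0.16 at 2 h. With the replicate number as a block, HB-7 was called higher at 2 h (0.46, adjusted p = 0.0431). At 4 h, 0 to 1 gene of the list was called lower and 0 to 1 higher over the 25 alternatives.

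Genes placed downstream of HB52 in roots moved at 4 h. WAG1 and WAG2, kinases that steer PIN auxin transporters, fell, and PIN2 (EIR1 in the annotation), the transporter of root tip auxin flow and also 1 of the root markers, rose. WAG1 had 6.15, 6.28 and 7.75 RPKM in GR244DO libraries at 4 h, against 10.4, 10.2 and 11.1 RPKM in solvent libraries (log2 difference -0.585, SE 0.09, limma adjusted p = 0.000534). WAG2 had 5.83, 6.28 and 6.36 RPKM in GR244DO libraries at 4 h, against 10.6, 8.83 and 11.0 RPKM in solvent libraries (-0.63, SE 0.09, adjusted p = 0.000385). PIN2 had 18.4, 17.4 and 19.4 RPKM in GR244DO libraries at 4 h, against 14.0, 13.3 and 15.5 RPKM in solvent libraries (0.35, SE 0.07, adjusted p = 0.00278). The GR244DO libraries at 4 h all lay below the solvent libraries for WAG1 and WAG2, as in 16.0% of all genes, and above them for PIN2, as in 17.5%. Among all genes 4.23% fell and 4.69% rose at 4 h. These genes were listed with earlier results of these data known, which may have favoured such calls.

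EIN3 and EIL1, the ethylene-signalling factors upstream, did not pass the test at 4 h in the main fit, with log2 differences of 0.24 and 0.06. Over the 25 alternatives, 2 of the 5 genes listed around HB52 were called lower at 4 h and 1 to 2 higher. EIN3 or EIL1 thus passed as higher in at least 1 alternative. At 2 h none of these 5 genes was called in limma or limma-voom, with 3 at an unadjusted p under 0.05, while with the replicate number as a block PIN2 was called higher (0.26, adjusted p = 0.028). An unadjusted p under 0.05 at 2 h was found for 3510 of all 19155 genes tested. Like HB52, WAG1 and WAG2 had their lowest solvent level at 2 h. WAG1 averaged 8.80 ± 0.877, 6.58 ± 0.535 and 10.5 ± 0.464 RPKM in solvent at 0 h, 2 h and 4 h, and WAG2 averaged 10.6 ± 1.12, 6.79 ± 0.676 and 10.1 ± 1.15 RPKM (SD, n = 3 each). Both fell in solvent at 2 h against 0 h (WAG1 adjusted p = 0.00595, WAG2 adjusted p = 0.000259) and rose at 4 h against 2 h (0.000189 and 0.00114), where 11.8% of all genes rose. Over the 15 libraries, r with HB52 was 0.84 for WAG2, 0.64 for WAG1 and -0.77 for PIN2. In likeness to HB52, WAG2 thus stood at place 124, WAG1 at 873 and PIN2 at 18839 of 19154 genes. EIL1 (r = 0.10) stood at 5478 and EIN3 (r = -0.28) at 10572.

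**Figure D4:**
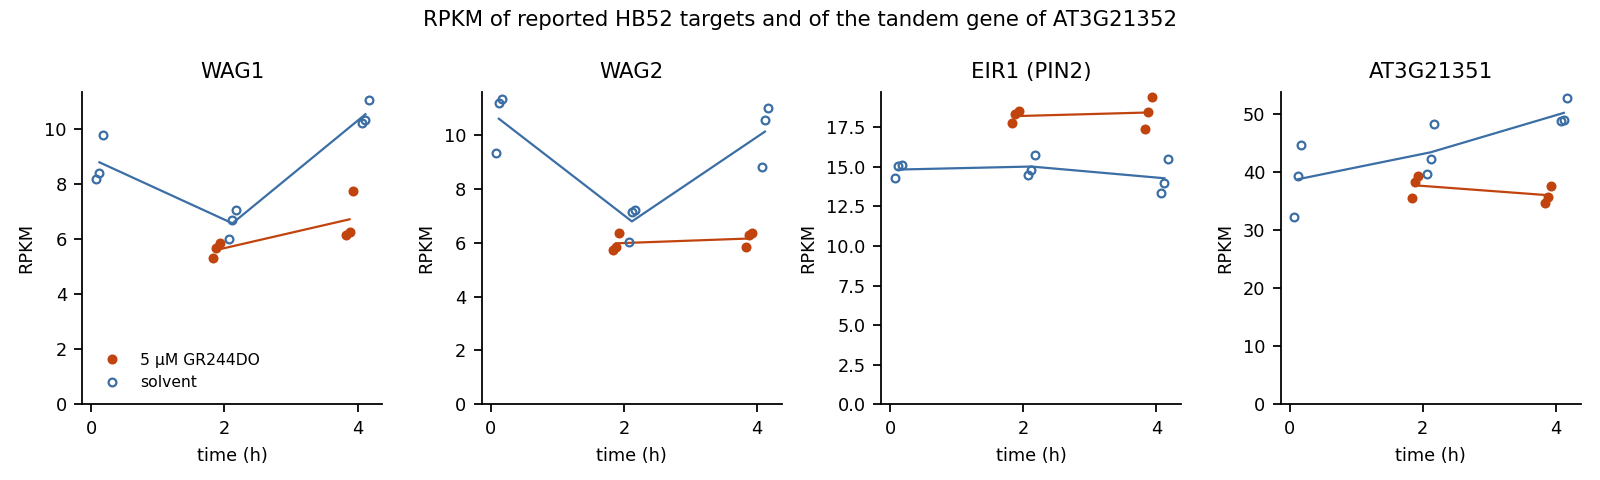
The panels plot the RPKM of WAG1, WAG2, EIR1 (PIN2) and AT3G21351 (vertical axes, from 0) against time in h, with filled points for libraries in 5 µM GR244DO, open points for libraries in solvent, and lines through the means. In solvent WAG1 and WAG2 dip at 2 h, to 6.58 and 6.79 RPKM, and at 4 h GR244DO lies below solvent for both and for AT3G21351 and above it for EIR1.

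Shoot growth genes known to respond to auxin, brassinosteroids or PIF factors formed the last list. Of its 27 genes, 23 reached 1 RPKM in 3 libraries and were tested. At 4 h 7 of the 23 genes tested fell and none rose, where 4.23% of all genes fell and 4.69% rose, with a list median of -0.22 against 0.02 over all genes. The list was chosen with earlier results of these data known, which may have favoured its counts at this and the other times. The 7 were the Aux/IAA genes IAA19, IAA5 and IAA29, the auxin conjugase gene GH3.3, SAUR15, the HD-Zip II gene HAT2 and the shade gene PAR1. IAA19 averaged 2.93 ± 0.168 RPKM in GR244DO and 6.50 ± 0.140 RPKM in solvent at 4 h (log2 difference -0.93, adjusted p = 6.74e-05). GH3.3 averaged 5.52 ± 0.0722 RPKM in GR244DO and 7.70 ± 0.217 RPKM in solvent (-0.42, adjusted p = 0.000748), and IAA5 averaged 0.395 ± 0.133 and 1.40 ± 0.233 RPKM (-0.79, adjusted p = 0.000483). IAA5 reached 1 RPKM only in solvent libraries, and IAA29 only in those at 0 h and 2 h. The filter thus let both in through solvent groups where they were high, which may favour falls. At 4 h IAA5 rests on 4 to 11 reads in GR244DO libraries and 21 to 28 in solvent libraries. IAA29 rests on 9 to 11 and 16 to 20 reads there. The count of genes that fell at 4 h ran from 4 to 11 over the other settings, and the calls of IAA29, SAUR15 and PAR1 were lost in some. That of IAA29 was lost without GR244DO 4 h replicate 1, 2 or 3 or solvent 4 h replicate 1 or 3 (adjusted p of 0.0569 to 0.107). That of SAUR15 was lost without GR244DO 4 h replicate 1 (0.0575) or solvent 4 h replicate 3 (0.0622), and that of PAR1 without GR244DO 4 h replicate 1 or 2 or any solvent 4 h library (0.0714 to 0.192). KDR and XTH15, the best expressed of the genes called at neither time, differed by 0.23 and -0.25 at 4 h.

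At 2 h 3 of these 23 genes fell, HAT2, IAA29 and EXPA1, with a list median of -0.33 against 0.06 over all genes and 0.412% of all genes falling. HAT2 averaged 13.5 ± 0.831 RPKM in GR244DO and 18.3 ± 2.00 RPKM in solvent (-0.40, adjusted p = 0.0189). IAA29 averaged 0.530 ± 0.177 RPKM in GR244DO and 1.29 ± 0.0180 RPKM in solvent (-0.59, adjusted p = 0.00455), and EXPA1, an expansin gene, passed narrowly (-0.32, adjusted p = 0.048). With the replicate number as a block 7 genes fell, IAA19, SAUR20, EXPA8 and PAR1 besides these 3, and all 3 calls were lost when near-identical libraries were averaged (adjusted p of 0.0544 for IAA29, 0.164 for HAT2 and 0.251 for EXPA1). The call of HAT2 was also lost without GR244DO 2 h replicate 3 (0.115) or solvent 2 h replicate 2 (0.0862) or 3 (0.0735), and that of EXPA1 without any of 10 libraries in turn (0.051 to 0.184). In solvent, 15 of the 23 genes fell at 2 h and 18 at 4 h against 0 h, where 9.66% and 15.4% of all genes fell, and none of the 23 rose, with the leaf markers falling over the same times. The filter tilts these counts to falls. SAUR19 reached 1 RPKM only in solvent at 0 h, and PRE1 and IAA29 only in solvent at 0 h and 2 h. Among listed genes not tested, the solvent mean at 4 h over that at 0 h was 1.80 for PRE5 and 1.14 for PIL1. It was 0.593 for IAA6 and 0.323 for SAUR23.

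**Figure D5:**
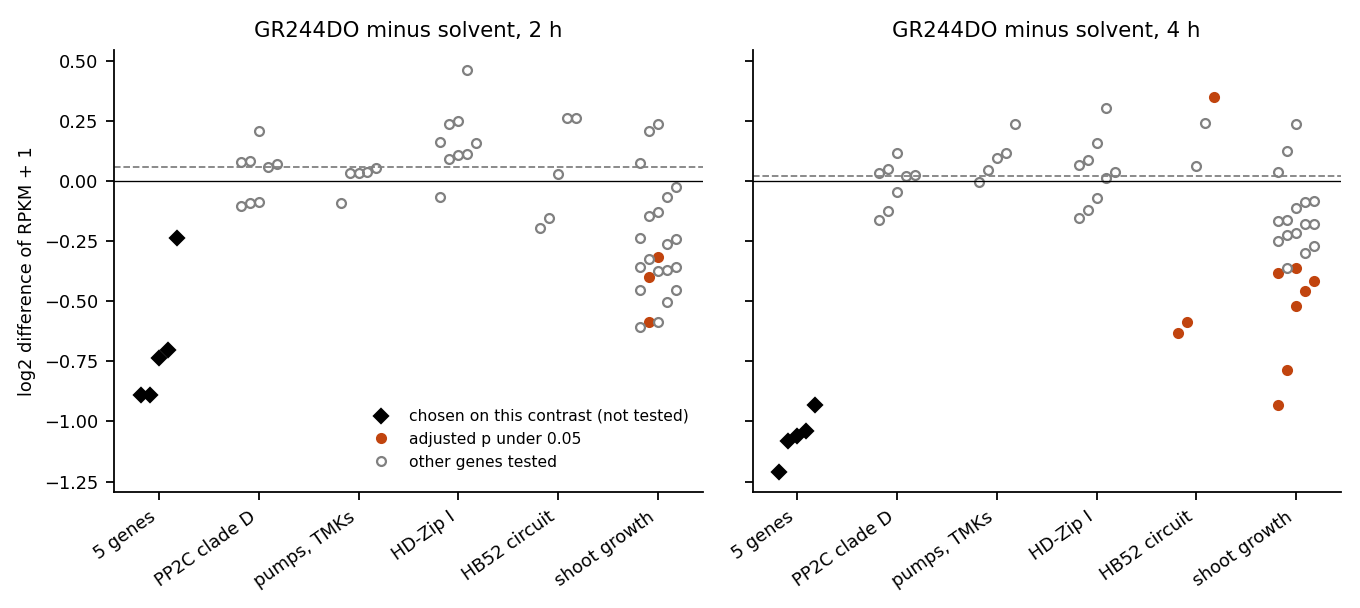
Each point is a gene, and the vertical axis gives the GR244DO minus solvent difference in log2(RPKM + 1), at 2 h on the left and 4 h on the right, with black diamonds for the 5 genes chosen on these contrasts, filled circles for other genes past an adjusted p of 0.05, open circles for those not past it, and a dashed line at the median of all genes (0.06 and 0.02). The diamonds run from -0.89 to -0.24 at 2 h and from -1.21 to -0.93 at 4 h, WAG1, WAG2 and 7 shoot growth genes are the filled points below 0 at 4 h, and the PP2C clade D, pump and HD-Zip I columns hold no filled point.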

How the data were processed

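RNA of 15 libraries was sequenced, and the authors deposited 1 table of RPKM per gene and library. Per the submitters' processing notes, STAR, featureCounts, DESeq and the TAIR10 genome were used; no source used here gives their versions. An entry without a gene name was left out. Each of the 347846 RPKM above 0 equalled a whole number of reads within 0.02 reads for 1 length per gene and 1 total per library, which gave depth and reads per gene. Group differences come from limma 3.58.1 (R 4.3.3) on log2(RPKM + 1), a scale that understates changes of low genes, in a single fit of 15 libraries by group with a variance trend, over the 19155 genes that reached 1 RPKM in 3 libraries. A gene is called, or said to rise or fall, at a Benjamini-Hochberg adjusted p under 0.05. All 5 genes passed the filter.

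Members and lists were chosen with earlier results of these data known. Within each list, up to 4 called genes with the smallest adjusted p and up to 2 further genes with the highest mean RPKM were named, and for each member the 2 nearest relatives by protein (BLASTP 2.17.0, E under 1e-10) and the 3 genes most alike in pattern. SAUR15, PAR1, HB-7, SAUR20 and EXPA8 fall outside this rule and were named after their values were seen. Sequences, coordinates and protein comparisons come from RefSeq TAIR10.1, whose nuclear chromosomes are those of TAIR10. The labels give each group replicates 1 to 3. Residuals of same-numbered libraries correlated at 0.179, 0.133 and 0.101 between GR244DO and solvent at 2 h. The block is therefore printed beside results at 2 h where it changes a call. At 4 h the same correlations were -0.183, 0.491 and 0.407, and those of differently numbered libraries ran from -0.577 to 0.403. Replicate numbers may thus matter at 4 h too, where calls of single list genes are not given with the block. In no solvent comparison did all 3 correlations exceed 0.1. Alternatives were another scaling, pseudocount, filter, block, choice of groups, limma-voom on the recovered reads, and leaving out libraries.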

Additional observations from a re-analysis of the deposited data

How the results depend on the processing

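All values are from limma unless limma-voom is named, and "the cause was not tested" holds for each change below. The 5 genes were lower in GR244DO than in solvent at both times under all 25 alternatives, which the choice of the genes on these same libraries favours. Their median log2 difference was -0.74 at 2 h (-0.81 with quantile normalization, -0.80 with median-of-ratios scaling, and -0.78 to -0.71 leaving out 1 library) and -1.06 at 4 h (-1.23 with a pseudocount of 0.1 and -1.23 with limma-voom). The number of genes called was 249 at 2 h, against 1025 with the replicate block, 67 with near-identical pairs averaged and 114 with only the groups compared. At 4 h it was 1710, against 2747 with the replicate block, 461 with pairs averaged, and 4203 with only the groups compared and the replicate block, an alternative chosen after seeing the data. Leaving out 1 library gave 92 to 321 genes at 2 h (98 and 92 without GR244DO 2 h replicates 2 and 3, 117 and 126 without solvent 2 h replicates 1 and 2) and 895 to 2175 at 4 h (920 and 895 without GR244DO 4 h replicates 1 and 2, 935 and 960 without solvent 4 h replicates 1 and 3).

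In solvent, 4 genes were called at 2 h against 0 h in every alternative. At 4 h against 0 h it was 3, or 3 to 4 leaving out 1 library, 4 with HB52 added with median-of-ratios scaling (adjusted p = 0.0346) and with the replicate block (0.0329), and 5 with only the groups compared and the replicate block, where AT3G21352 (adjusted p = 0.0269) and HB52 (0.022) passed. At 4 h against 2 h it was 2, and 1 with median-of-ratios scaling, without a filter, with pairs averaged, and with only the groups compared with or without the replicate block. Leaving out 1 library gave 1 to 2 there. With the replicate block over all groups it was 3, HB52 included (adjusted p = 0.0174, and 0.049 with a filter at 5 RPKM). The change of AT3G21352 at 2 h against 0 h ran from -0.022 to 0.15 leaving out 1 library and was below 0 only without solvent 2 h replicate 2. Counts of 11 to 64 reads limit what can be seen of AT3G21352.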
